A study of Arabidopsis thaliana with 4 samples.

Results

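Transcripts of 52 listed cell cycle and DNA replication genes of Arabidopsis thaliana were followed in whole seedlings that overexpress the zinc finger gene AtC3H17 or carry a named allele of it, beside wild type. The genes were taken by locus and comprise the A-, B- and D-type cyclins, the cyclin-dependent kinases (CDKs) CDKA;1 and CDKB, the E2F factors and RBR1, the KRP and SIAMESE inhibitors, WEE1, MCM2 to MCM7, the PCNA genes, CDC6, the Aurora kinases AUR1 and AUR2, and the cytokinesis gene KN. Of the 52, 51 had a value, among 20462 genes measured in all, and no probe was matched to the D-type cyclin CYCD5;1 (AT4G37630). All 51 were well above background on all 4 arrays by at least 1 probe, so that no member entered through 1 genotype only. They lie on all 5 chromosomes, with 14, 12, 8, 6 and 12 of the 52 on chromosomes 1 to 5.

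The samples were AtC3H17 OX, which overexpresses AtC3H17 (2 arrays, 1 and 2), atc3h17-1, named as an allele of the same gene (1 array), and WT (1 array). All were untreated Col-0 seedlings, taken whole 14 days after germination in days of 8 h light and 16 h darkness at 22 °C. The promoter of the overexpressor, the number of independent lines and the nature of the allele are not given in the sources used here. The submitters' design set both AtC3H17 OX samples against WT to find genes that respond to AtC3H17.

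A plant cell enters the cycle when D-type cyclins with CDKA;1 relieve the repression that RBR1 exerts on E2F factors, which switch on genes of DNA replication such as the MCM helicase subunits, CDC6 and PCNA. Genes of G2 and mitosis, among them the B-type cyclins, the plant-specific CDKB kinases, the Aurora kinases and KN, are switched on later, by MYB3R factors among others. KRP and SIAMESE proteins inhibit CDK complexes, and in a seedling most dividing cells lie in the root and shoot meristems and in young leaves. In RNA of whole seedlings, fewer dividing cells and less RNA of these genes per cell cannot be told apart.

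Levels are log2 of the processed spot intensity relative to the array's 75th percentile, and differences are log2 differences between arrays, so a level is set only against the same gene's level on another array. The 75th percentile of the signal was 3273 to 3487 over the 4 arrays, 72.0% to 74.5% of spots were well above background, and none was saturated. The arrays lay on 1 slide and were read in 1 scan. Replicate arrays AtC3H17 OX 1 and 2 differed by a median of 0.0316, less than the noise between repeated spots of a probe (SD of 0.0590 and 0.0551), and were counted as 1 sample. No p-value here therefore measures the spread between plants. Single genes differed more between these 2 arrays, 238 of the 20462 by at least 2-fold. The WT array stood apart, with a repeated-spot SD of 0.218 and an uneven surface, where the local trend ran from -0.235 to 0.224 apart from its extremes, against -0.089 to 0.104 over the other arrays. Spot noise alone gave a difference from WT an SD of 0.222 for AtC3H17 OX and 0.227 for atc3h17-1. A difference between AtC3H17 OX and atc3h17-1, without the WT array, had an SD of 0.0743. Spot noise was measured on 12 repeated probes well above background on all arrays, so it does not cover dim spots. With 1 sample a genotype, the number of arrays limits the precision of every value below.

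AtC3H17 itself (AT2G02160, taken as this gene from general knowledge) was examined first, on 3 probes. Probe A_84_P803253 read 1.18 and 1.19 on the AtC3H17 OX arrays, against -1.01 on the WT array, and probe A_84_P847169 read -2.25 and -2.27, against -4.75 in WT. The third, A_84_P221496, read 2.49 and 2.54 in AtC3H17 OX and 2.54 in WT, so the probes disagreed on overexpression. Neither this probe nor A_84_P803253 stood well above background in atc3h17-1, while A_84_P847169 read -4.25, above its WT level.

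Most cell cycle genes were lower in AtC3H17 OX than in WT. The 51 members had a median difference of -0.56 (quartiles -0.72 and -0.22), against -0.03 for all 20462 genes (quartiles -0.31 and 0.26). By at least 0.5 log2 on both arrays, 27 members were lower (52.9%), where 12.6% of all genes were (11.5% of the 19178 genes with a probe well above background on all 4 arrays), and 3 were higher, where 12.3% of all genes were. At any size on both arrays, 42 members were lower (82.4%, against 50.5% of all genes) and 8 were higher (against 44.2%). At the larger threshold of 2-fold on both arrays, 3 members were lower, CYCB1;1, CDC6 and AUR2 (2.78% of all genes), and 1 was higher, KRP4 (4.37% of all genes), so most of the shift lay between those thresholds. The plot of the differences by array shows every member.

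**Figure D1:**
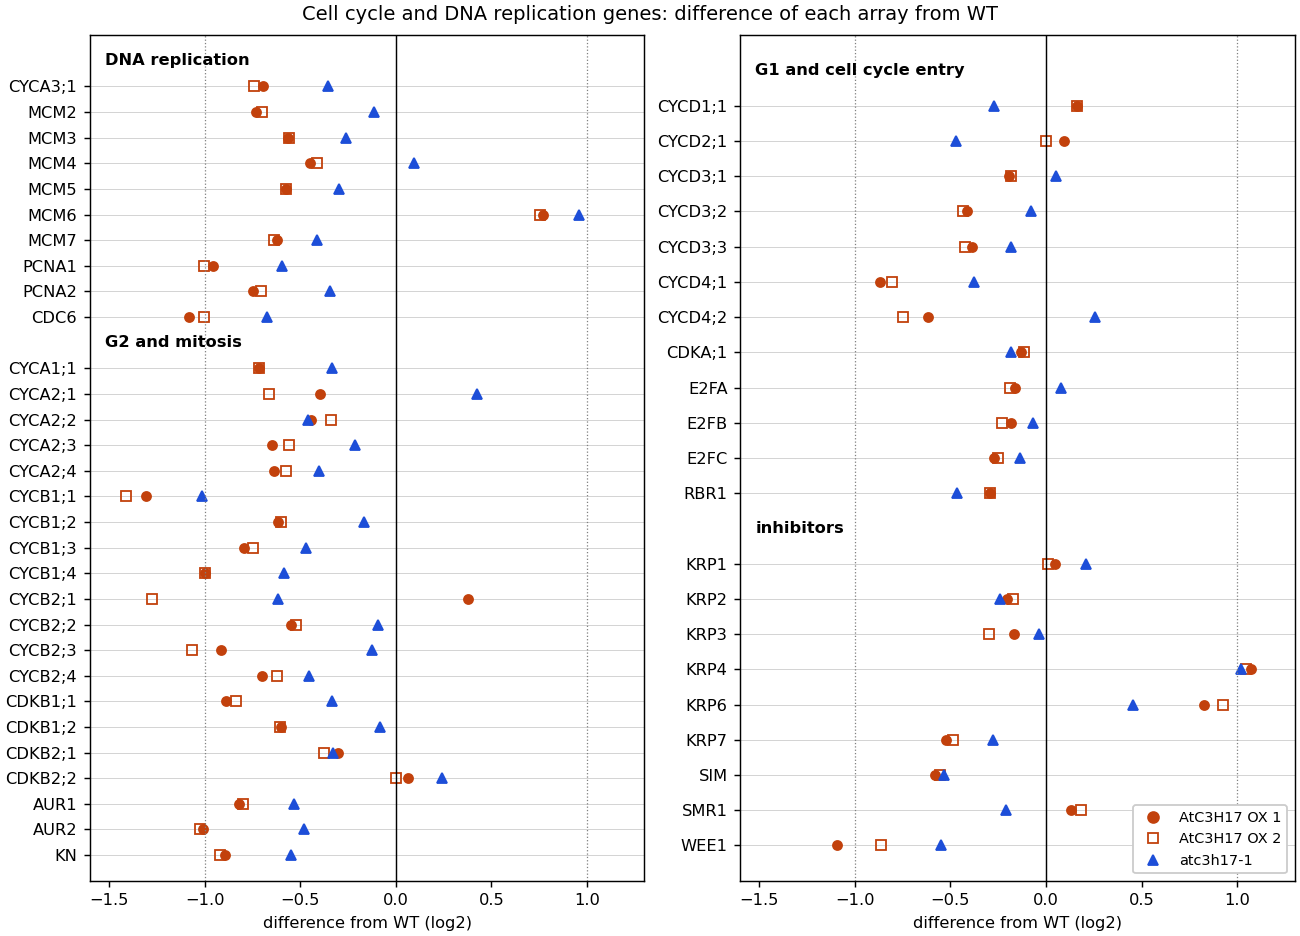
Difference from WT (log2, horizontal axis) of each of the 51 members on AtC3H17 OX array 1 (filled circle), AtC3H17 OX array 2 (open square) and the atc3h17-1 array (triangle), by class; dotted lines mark 2-fold. Most circles and squares of the replication and mitosis classes lie between -0.5 and -1.1, KRP4 lies above 1.0 on all 3 arrays, and CYCB2;1 is the member whose AtC3H17 OX arrays fall on opposite sides of WT.

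Genes of DNA replication had a median of -0.67 in AtC3H17 OX against WT over 10 genes. By at least 0.5 log2 on both arrays, 8 of them were lower (12.6% of all genes were). CDC6 (AT2G29680), which loads the MCM helicase at replication origins, had levels of -3.74 and -3.66 on the AtC3H17 OX arrays, -3.34 on the atc3h17-1 array and -2.66 on the WT array. Both AtC3H17 OX arrays were thus below atc3h17-1, and all 3 were below WT. The CDC6 level in AtC3H17 OX was 0.486 of that in WT, a difference of -1.04. With normexp background correction the CDC6 difference was -0.59, under 2-fold. PCNA1 (AT1G07370), a gene for the sliding clamp that holds DNA polymerase on its template, read -1.59 and -1.64 in AtC3H17 OX, -1.23 in atc3h17-1 and -0.63 in WT, in the same order. Its differences from WT of -0.955 and -1.003 straddled the 2-fold threshold. The second sliding clamp gene, PCNA2, and the S-phase cyclin gene CYCA3;1 differed from WT by means of -0.73 and -0.72.

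Among the 6 subunits of the MCM helicase, which unwinds DNA at the fork, 5 were lower in AtC3H17 OX than in WT on both arrays (50.5% of all genes were). MCM6 was higher (44.2% of all genes were). MCM2, MCM3, MCM5 and MCM7 differed by -0.72, -0.56, -0.57 and -0.63, and MCM4 by -0.43. With normexp correction MCM2 and MCM7 were at -0.38 each and MCM4 at -0.02. MCM6 (AT5G44635) read -2.49 and -2.51 on the AtC3H17 OX arrays and -2.30 on the atc3h17-1 array, against -3.26 on the WT array. All 3 arrays lay above WT for this subunit, by 0.77, 0.75 and 0.96. Its value rests on 1 probe. With the surface trend of each array removed, the AtC3H17 OX and atc3h17-1 differences of MCM6 were 0.42 and 0.67, and with background correction by normexp 1.03 and 1.21. Between AtC3H17 OX and atc3h17-1, without the WT array, all 6 subunits were lower in AtC3H17 OX on both arrays (47.3% of all genes were). MCM6 differed by -0.20 and MCM2 by -0.60. One of the probes of MCM2 was well above background in atc3h17-1 only, and on the other probe, well above background on all arrays, MCM2 read -1.24 and -1.24 in AtC3H17 OX, -1.0001 in atc3h17-1 and -0.61 in WT.

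Genes of G2 and mitosis had a median of -0.63 over 20 genes in AtC3H17 OX against WT. Lower by at least 0.5 log2 on both arrays were 15 (12.6% of all genes), and none was higher by as much (12.3% of all genes). The B-type cyclins, which drive entry into mitosis with their CDKs, had a median of -0.72, and 7 of the 8 were lower by at least 0.5 log2 on both arrays. CYCB1;1 (AT4G37490), widely used as a marker of cells in G2 and mitosis, had levels of -3.29 and -3.39 in AtC3H17 OX, -2.999 in atc3h17-1 and -1.98 in WT. Its level on every array of AtC3H17 OX and atc3h17-1 was more than 2-fold below WT. At 0.390 of WT, the AtC3H17 OX level differed by -1.36, the largest of the 51 members at these settings. With normexp correction the CYCB1;1 difference was -0.65, and with the surface trend removed -1.05.

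Among the other B-type cyclins, CYCB1;4 (AT2G26760) read -1.81 and -1.80 in AtC3H17 OX, -1.39 in atc3h17-1 and -0.81 in WT. The AtC3H17 OX arrays lay on either side of the 2-fold threshold, at -1.0004 and -0.996. Their mean difference was -0.775 with normexp correction and -0.772 with the surface trend removed. CYCB1;2, CYCB1;3, CYCB2;2, CYCB2;3 and CYCB2;4 had mean differences of -0.54 to -0.99. The exception was CYCB2;1 (AT2G17620), which read -3.32 on AtC3H17 OX array 1 and -4.97 on array 2, against -4.31 in atc3h17-1 and -3.70 in WT. Its arrays fell on both sides of WT, at 0.38 and -1.28, so that CYCB2;1 gives no direction for AtC3H17 OX.

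All 6 A-type cyclins, which act from S phase to mitosis, were lower in AtC3H17 OX than in WT on both arrays (50.5% of all genes were). Their median was -0.60, with means of -0.39 (CYCA2;2) to -0.72 (CYCA3;1). The CYCA2;2 difference turned to 0.16 with normexp correction. The 4 CDKB kinases, which are made from S phase to mitosis, did not move alike. CDKB1;1 and CDKB1;2 differed by -0.86 and -0.60, CDKB2;1 by -0.34, and CDKB2;2 by 0.03, a value whose sign turned with normexp correction, quantile normalization, scaling by the array median and removal of the surface trend.

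Aurora kinases act on the spindle and at cell division. AUR2 (AT2G25880) read -2.50 and -2.52 on the AtC3H17 OX arrays, -1.98 on the atc3h17-1 array and -1.497 on the WT array. At 0.495 of WT its difference was -1.02, although normexp correction gave -0.27. AUR1 differed by a mean of -0.81. KN (AT1G08560, also SYP111), a syntaxin of the growing cell plate, differed by -0.90, and its 3 probes gave -0.72 to -1.10.

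**Figure D2:**
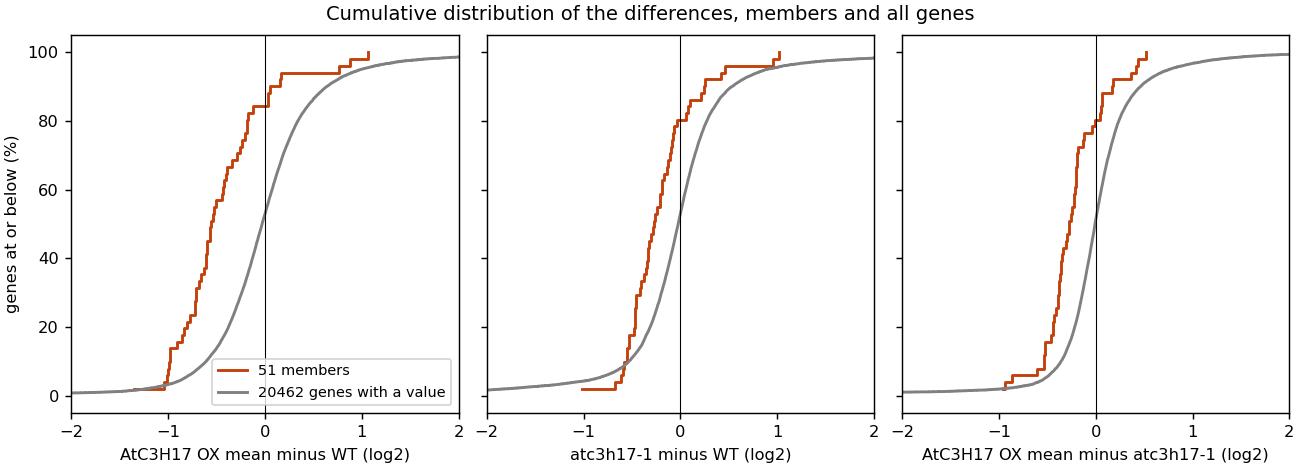
Cumulative share of genes (%, vertical axis) at or below each difference (log2, horizontal axis) for the 51 members (stepped line) and all 20462 genes (smooth line), for AtC3H17 OX against WT, atc3h17-1 against WT and AtC3H17 OX against atc3h17-1. The member line lies left of the line of all genes over most of its range in each panel, with medians of -0.56, -0.27 and -0.27.

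Genes of G1 and cell cycle entry lay closer to WT. Their median in AtC3H17 OX was -0.23 over the 12 measured of 13. Lower by at least 0.5 log2 on both arrays were 2 (12.6% of all genes), both D-type cyclins. CYCD4;1 (AT5G65420) read -2.99 and -2.93 in AtC3H17 OX, -2.50 in atc3h17-1 and -2.13 in WT, with the AtC3H17 OX arrays lowest. Its AtC3H17 OX difference of -0.84 was -0.61 with normexp correction and -0.56 with the surface trend removed. CYCD4;2 (AT5G10440) read -6.16 and -6.29 in AtC3H17 OX, -5.29 in atc3h17-1 and -5.54 in WT, so that atc3h17-1 was above WT and AtC3H17 OX below it, by -0.68, or -0.42 with normexp correction. CYCD3;2 (AT5G67260) read 0.33 and 0.31 in AtC3H17 OX, 0.66 in atc3h17-1 and 0.74 in WT. CYCD3;3 and CYCD3;1, of the same subfamily, differed by -0.41 and -0.19. CYCD1;1 and CYCD2;1 were the members of this class on or above the WT level, at 0.16 and 0.05.

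CYCD2;1 (AT2G22490) read -2.24 and -2.34 in AtC3H17 OX, -2.81 in atc3h17-1 and -2.34 in WT, and the atc3h17-1 array alone was low. That low value did not hold with normexp correction, where atc3h17-1 was 0.27 and AtC3H17 OX 0.74 above WT. CDKA;1, the kinase partner of the D-type cyclins, differed by -0.12, and E2FA, E2FB and E2FC by -0.18, -0.21 and -0.26, all near the spot noise of 0.222. The sign of E2FA turned with normexp correction (0.27), while E2FA was at -0.58 with the surface trend removed. The sign of E2FB turned once the surface trend was removed (0.08). RBR1 (AT3G12280), the retinoblastoma-related repressor of E2F factors, read -1.46 and -1.46 in AtC3H17 OX, -1.64 in atc3h17-1 and -1.17 in WT. The AtC3H17 OX difference of RBR1 was -0.29 and turned to 0.06 once the surface trend was removed.

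The 9 inhibitors had no common direction in AtC3H17 OX, with a median of -0.19. By at least 0.5 log2 on both arrays, 2 were higher than WT (12.3% of all genes) and 2 lower (12.6% of all genes). KRP4 (AT2G32710), a CDK inhibitor of the KIP-related family, had levels of 0.13 and 0.11 in AtC3H17 OX, 0.08 in atc3h17-1 and -0.94 in WT. The AtC3H17 OX arrays were 0.05 and 0.03 above atc3h17-1, and WT stood alone below them. The KRP4 level was 2.08-fold that of WT in AtC3H17 OX, a difference of 1.06, and 2.03-fold in atc3h17-1. Its value comes from 1 probe, and with the surface trend removed both differences fell under 2-fold, at 0.83 and 0.81.

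KRP6 (AT3G19150), of the same family, read -2.82 and -2.73 in AtC3H17 OX, -3.19 in atc3h17-1 and -3.65 in WT, averaged over its pair of probes. One of those probes was not well above background in WT, and the other (A_84_P157085) gave 0.59 and 0.72 in AtC3H17 OX and 0.52 in atc3h17-1. The remaining KRP genes differed from WT by 0.03 (KRP1), -0.19 (KRP2), -0.23 (KRP3) and -0.51 (KRP7).

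WEE1 (AT1G02970), a kinase that restrains CDKs when DNA replication is disturbed, read -4.87 and -4.64 in AtC3H17 OX, -4.33 in atc3h17-1 and -3.78 in WT. AtC3H17 OX was lowest and WT highest, as for CDC6 and PCNA1, and the mean difference of AtC3H17 OX from WT was -0.98. SIM (AT5G04470), the founding member of the SIAMESE inhibitors and known from trichomes, read -0.28 and -0.25 in AtC3H17 OX, -0.23 in atc3h17-1 and 0.31 in WT, with WT alone high. The related SMR1 differed by 0.16.

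In limma, whose error came from the AtC3H17 OX pair of arrays alone and leaves out that of the WT array, the same 4 members passed an adjusted p under 0.05 with at least 2-fold. They were CYCB1;1, CDC6 and AUR2 below WT (2.84% of all genes) and KRP4 above it (4.43% of all genes), with adjusted p-values of 0.00572 to 0.00656. Without the size threshold, limma's adjusted p was under 0.05 for 40 members below WT (36.1% of all genes) and 4 above it (30.3% of all genes). The 7 members that missed it were CYCA2;1, CYCB2;1, CDKB2;2, CYCD2;1, KRP1, KRP3 and SMR1, with limma adjusted p-values of 0.0575 to 0.702.

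In atc3h17-1, compared with the same WT array, cell cycle genes were lower as well, by a median of -0.27 (quartiles -0.46 and -0.08) against -0.02 for all genes. With 1 array a genotype this comparison has no replicate check. Of the 51 members, 9 were lower by at least 0.5 log2 (17.6%, where 11% of all genes were), and 2 were higher (10.6% of all genes). At any size, 41 were lower (80.4%, against 53% of all genes) and 10 higher (against 47%). At 2-fold, CYCB1;1 was lower, at 0.494 of WT (4.24% of all genes were that much lower), and KRP4 was higher (4.34% of all genes). The 9 lower by 0.5 log2 were CYCB1;1 (-1.02), CDC6 (-0.68), CYCB2;1 (-0.62), PCNA1 (-0.59), CYCB1;4 (-0.59), WEE1 (-0.55), KN (-0.55), SIM (-0.53) and AUR1 (-0.53). With normexp correction CYCB1;1 was at -0.36 and CDC6 at -0.26, and with the surface trend removed CYCB1;1 was at -0.71, so that the 2-fold call of CYCB1;1 was lost in both. The 2 higher were KRP4 (1.02) and MCM6 (0.96).

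The class medians in atc3h17-1 were -0.32 for replication, -0.37 for G2 and mitosis, -0.16 for G1 and cell cycle entry, and -0.21 for the inhibitors. Of the replication genes 8 of 10, of the G2 and mitosis genes 18 of 20, and of the G1 genes 9 of 12 were below WT at any size. Of all genes, 53% were. The B-type cyclins were all below WT, from -0.10 (CYCB2;2) to -1.02, and the sign of CYCB2;3, at -0.12, turned once the surface trend was removed. Members above WT besides MCM6 and KRP4 were MCM4 (0.09), CYCA2;1 (0.42), CDKB2;2 (0.24), CYCD3;1 (0.05), CYCD4;2 (0.26), E2FA (0.08), KRP1 (0.21) and KRP6 (0.46). The signs of CDKB2;2, CYCD3;1 and E2FA turned under 1 alternative each. Both comparisons share the WT array, so an error in a WT spot moves AtC3H17 OX and atc3h17-1 the same way for that gene.

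AtC3H17 OX was therefore also set directly against atc3h17-1, which does not use the WT array and has the smallest spot noise. Cell cycle genes were lower in AtC3H17 OX here too, by a median of -0.27 (quartiles -0.40 and -0.13), against -0.01 for all genes. On both arrays and at any size, 40 members were lower (78.4%, where 47.3% of all genes were) and 9 were higher (where 45.1% of all genes were). By at least 0.5 log2, 8 were lower (15.7%, against 4.7% of all genes) and none was higher (7.78% of all genes). None passed 2-fold in either direction on both arrays, where 1.66% of all genes were lower and 2.8% higher. With normexp correction the count of 8 became 1, while the median stayed at -0.24.

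The 8 members were CYCA2;1 (-0.95), CYCD4;2 (-0.94), CYCB2;3 (-0.86), MCM2 (-0.60), AUR2 (-0.54), CDKB1;1 (-0.53), MCM4 (-0.52) and CDKB1;2 (-0.52). On the probe of MCM2 that was well above background on all arrays the difference was -0.24, and with such probes only the count was 7. All 10 replication genes were lower in AtC3H17 OX than in atc3h17-1 on both arrays, within -0.20 to -0.60, with a median of -0.36. Of the 20 G2 and mitosis genes 17 were lower on both arrays (47.3% of all genes were), with a median of -0.37. The G1 genes had a median of -0.18, with 8 lower and 4 higher on both arrays (47.3% and 45.1% of all genes). CYCD2;1 and CYCD1;1 were the highest, at 0.52 and 0.44. The inhibitors were spread about 0 with a median of -0.03, from WEE1 at -0.43 to KRP6 at 0.42, and KRP4 was at 0.04. On the KRP6 probe that was well above background on all arrays, the difference was 0.13.

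**Figure D3:**
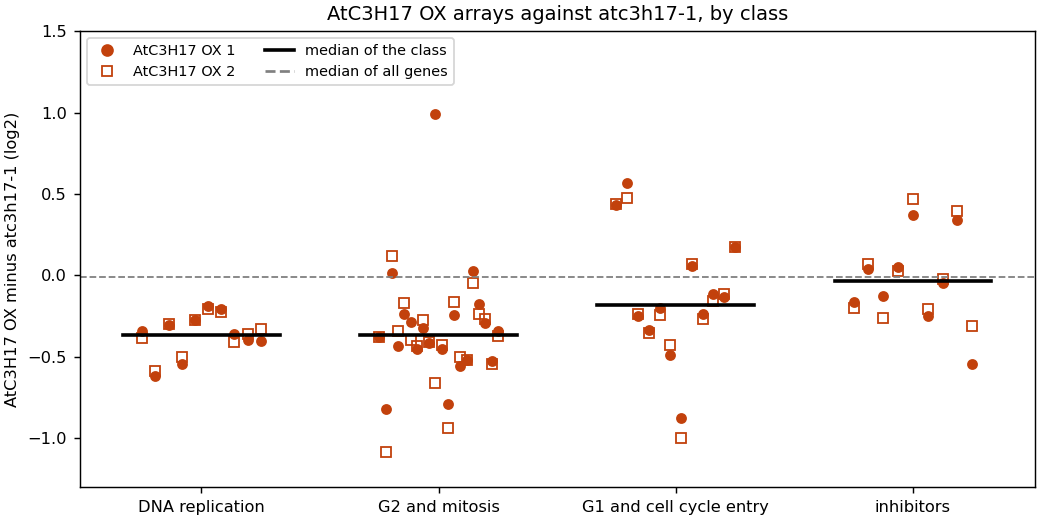
Difference between each AtC3H17 OX array and the atc3h17-1 array (log2, vertical axis) for every member by class, with AtC3H17 OX 1 as filled circles and AtC3H17 OX 2 as open squares, and bars at the class medians (-0.36, -0.37, -0.18 and -0.03); the dashed line is the median of all genes. Every replication gene lies below 0 on both arrays, the inhibitors lie on both sides, and the lone circle near 1.0 is CYCB2;1 on AtC3H17 OX 1.

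Other genes of the same machinery were read as lists beside the members. Of 18 further replication genes, 17 were measured, and in AtC3H17 OX against WT their median was -0.52. By at least 0.5 log2 on both arrays, 7 were lower (12.6% of all genes) and none higher (12.3% of all genes). Lower by 2-fold (2.78% of all genes) were 2 subunits of the origin recognition complex, the platform on which the helicase is loaded. ORC2 read -3.76 and -3.77 in AtC3H17 OX, -3.40 in atc3h17-1 and -2.72 in WT. ORC6 read -5.47 and -5.40 in AtC3H17 OX, -5.02 in atc3h17-1 and -4.24 in WT. The AtC3H17 OX levels of ORC6 were dim, and the spot noise does not cover dim spots. In atc3h17-1 the median of this list was -0.25 against WT, with 2 genes lower by 0.5 log2 (11% of all genes). In AtC3H17 OX against atc3h17-1 it was -0.32, with 15 of 17 lower on both arrays (47.3% of all genes).

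The 12 further genes of mitosis and cytokinesis had a median of -0.25 in AtC3H17 OX against WT. By at least 0.5 log2, 4 were lower and 1 higher (12.6% and 12.3% of all genes). NACK1, a kinesin of the phragmoplast in which the new cell wall forms, and the third Aurora kinase, AUR3, differed by -0.93 and -0.85. MYB3R3, known as a repressor among the MYB3R factors, was the one that was higher, at 0.81 in AtC3H17 OX and 0.98 in atc3h17-1. The WT level of MYB3R3, at -5.28, was dim. Against WT in atc3h17-1 this list had a median of -0.05, and in AtC3H17 OX against atc3h17-1 of -0.28. The 7 genes of the anaphase-promoting complex and its activators, which mark mitotic proteins for destruction, had medians of -0.12 in AtC3H17 OX against WT, -0.06 in atc3h17-1 against WT and -0.11 in AtC3H17 OX against atc3h17-1.

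Among 15 measured of 17 other cyclins, CDKs and E2F partners the medians in the same comparisons were -0.17, -0.05 and -0.13, and DEL3, DEL1 and CKS2 were lowest in AtC3H17 OX against WT, at -0.86, -0.73 and -0.73. DEL1 and DEL3 are atypical E2F factors and CKS2 is a subunit that docks on CDKs. The 6 measured of 7 other SIAMESE-related and KRP inhibitors had medians of -0.14, -0.16 and 0.06. Over all 57 measured genes of these 5 lists, the median in AtC3H17 OX against WT was -0.22. By at least 0.5 log2 on both arrays, 16 were lower and 1 higher (12.6% and 12.3% of all genes).

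Markers of the tissues of a seedling were measured beside the members, and those of root and of green leaf were both well above background in AtC3H17 OX and WT. The 18 root markers were mostly genes of root hairs, endodermis and root transport. Their median against WT was -0.52 in AtC3H17 OX and -1.98 in atc3h17-1. With CASP4 and CASP5, not well above background in atc3h17-1, at their bound, the atc3h17-1 median was -1.87. By 2-fold, 3 were lower in AtC3H17 OX (2.78% of all genes) and 14 in atc3h17-1 (4.24% of all genes). Those 3 were PRP3, PRP1 and RSL4, all known from root hairs. PRP3 read -2.10 and -2.07 in AtC3H17 OX, -3.62 in atc3h17-1 and -0.90 in WT. PRP1 read -4.57 and -4.71 in AtC3H17 OX, -5.06 in atc3h17-1 and -2.71 in WT. RSL4 read -5.55 and -5.60 in AtC3H17 OX, -5.91 in atc3h17-1 and -3.62 in WT. Its AtC3H17 OX and atc3h17-1 levels were dim. All 3 markers were lowest in atc3h17-1, with AtC3H17 OX between it and WT. At any size on both AtC3H17 OX arrays, 15 of the 18 were below WT (50.5% of all genes were). The 2 above it were NRT2.1 (0.67) and PHO1 (0.50), where 44.2% of all genes were above. LRX1 lay on both sides of WT, at 0.52 and -0.09. The summed level of the 18 was 83.3% and 83.6% of WT in AtC3H17 OX and 68.0% in atc3h17-1. That sum weights each probe by its brightness and follows PYK10, at -0.24 in AtC3H17 OX and -0.32 in atc3h17-1, so it understates the shift that the median gives. Between AtC3H17 OX and atc3h17-1, all 18 were higher in AtC3H17 OX (45.1% of all genes were). Their median was 1.25 (1.18 with CASP4 and CASP5 at their bound), where the cell cycle members were lower by a median of -0.27.

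Of 5 root meristem markers, SCR and SHR were well above background on all 4 arrays. SHR differed from WT by -0.43 in AtC3H17 OX and -0.13 in atc3h17-1, and SCR by -0.06 and 0.06. WOX5 was well above background on the WT array and on AtC3H17 OX 1 only. PLT1 was well above background in atc3h17-1 only, at least 3.06-fold over WT, and PLT2 did not pass the filter. Shoot meristem markers, 3 measured of 5, did not move alike. The homeobox gene STM, which marks the shoot meristem, differed from WT by -0.10 in AtC3H17 OX and -0.23 in atc3h17-1. KNAT1 differed by 0.34 in AtC3H17 OX and -0.03 in atc3h17-1, and the receptor kinase gene CLV1 by 0.72 and 0.07. Their summed level, 157% and 154% of WT in AtC3H17 OX and 103% in atc3h17-1, follows the bright CLV1 probes, while WUS and CLV3, which define the stem cell niche, did not pass the filter. The 6 growth genes of leaf primordia had medians of -0.03 in AtC3H17 OX against WT, 0.03 in atc3h17-1 against WT and -0.07 in AtC3H17 OX against atc3h17-1. Over 8 green leaf markers the medians in the same comparisons were 0.10, 0.01 and 0.12, and the summed level was 106.6% and 104.8% of WT in AtC3H17 OX and 99.92% in atc3h17-1. The part of root, meristem and leaf shares in the cell cycle differences was not tested.

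**Figure D4:**
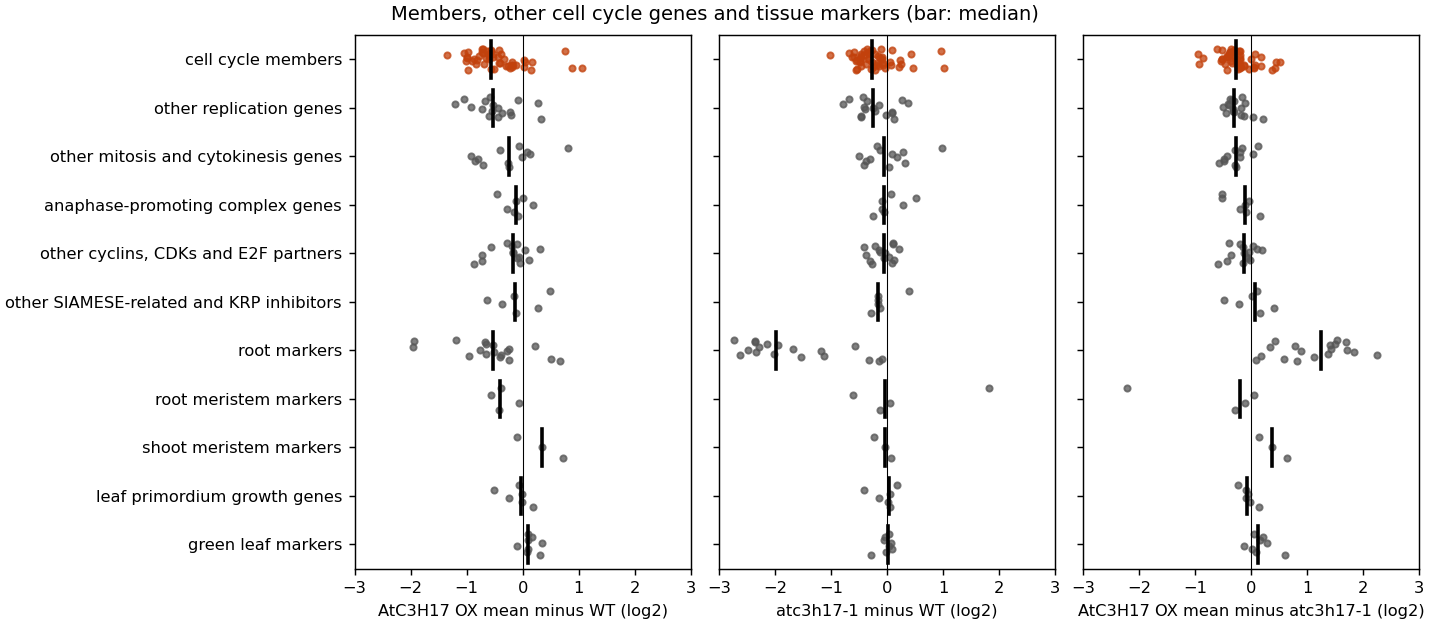
Differences (log2, horizontal axis) of the 51 members and of each list of other cell cycle genes and tissue markers, 1 dot a gene with a bar at the median, for AtC3H17 OX mean minus WT, atc3h17-1 minus WT and AtC3H17 OX mean minus atc3h17-1. The medians of the members and of the other replication genes lie left of 0 in all 3 panels, with single genes on the right. So do the medians of other mitosis and cytokinesis genes, anaphase-promoting complex genes, other cyclins, CDKs and E2F partners, and root meristem markers. The median of the root markers lies left of 0 in the first pair of panels and at 1.25 in the last. The bar of the root meristem markers includes PLT1 and WOX5, which were not well above background on every array.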

How the data were processed

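Total RNA of whole seedlings was labelled with Cy3 and hybridised to 4 one-colour Agilent 4x44K Arabidopsis arrays, per the labels' protocols. Per the file headers, Agilent Feature Extraction 11.0.1.1 made the deposited processed signal, a linear intensity with background subtracted and spatial trend removed within the array and no scaling between arrays, together with 0 or 1 marks for spots well above background, saturated or outlying. Per the same headers, the annotation of the array design is TAIR10.

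Signals were put on a log2 scale and set against the 75th percentile of their own array. Outlier spots were left out (70 of 43603 probes), probes had to be well above background throughout at least 1 genotype (32972 probes), and the mean of kept probes gave 20462 genes, 14404 with 1 probe. Probes were matched to loci by transcript accession through the TAIR10.1 RefSeq table (34348 probes with 1 locus). Of the 51 members 43 had 1 kept probe, and in the 8 with several all probes ran one way on both AtC3H17 OX arrays, in 6 of the 8 also in atc3h17-1. Common gene names are used where the table's symbol differs.

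AtC3H17 OX was called by size on both arrays (2-fold, and 0.5 log2), beside limma 3.58.1 in R 4.3.3 (lmFit and eBayes over all genes, 3 groups, 1 residual and 1.33 prior degrees of freedom, Benjamini-Hochberg adjustment, threshold 0.05). The limma step was checked on simulated data with equal noise on all 4 arrays, so that check does not cover the noisier WT array. Comparisons with 1 array a genotype were by size alone. Root markers not well above background in 1 genotype were set, for a bound, at the lowest signal well above background on that array. Tables used pandas 2.3.3 and numpy 2.4.6 under Python 3.11.15, and plots used matplotlib 3.10.9.

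The members, lists and thresholds were chosen with earlier results of these data known. Values on each array are given for members called at 2-fold in any comparison and for the 3 of each class with the largest difference in AtC3H17 OX or atc3h17-1, of other lists genes called at 2-fold, or up to 3 with the largest difference, may be named. Alternatives were normexp background correction (offset 50, on the deposited median spot and local background intensities, since the planned mean signal was not used here), quantile normalization, the array median, no filter, probes above background on all 4 arrays, the brightest probe, removal of a local surface trend, the authors' deposited series value table, and leaving out each AtC3H17 OX array. In that table, the authors' linear intensities were uncentred and close to the processed signal, with medians of 620, 611, 580 and 616 for AtC3H17 OX 1, AtC3H17 OX 2, atc3h17-1 and WT. No sequences of probes, promoters or proteins were used here.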

Additional observations from a re-analysis of the deposited data

Results flagged for a closer look

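For 8 members both AtC3H17 OX arrays lay on one side of WT and the atc3h17-1 array on the other. The share of all genes split in this way was not counted, so the count of 8 is not a result about the members. The difference between the genotypes' effects was not tested, as each genotype is 1 sample. CYCA2;1 and CYCD4;2, an A-type and a D-type cyclin, had the largest gaps, with AtC3H17 OX effects of -0.53 and -0.68 and atc3h17-1 effects of 0.42 and 0.26, or -0.95 and -0.94 from one to the other. Their levels of -6.29 to -5.19 were near the lowest signal well above background, and with normexp correction the gaps were -0.37 and -0.48. For MCM4 the gap was -0.52, for E2FA -0.25 and for CYCD3;1 -0.24, each with AtC3H17 OX below WT and atc3h17-1 above it. The opposite held for CYCD2;1 (0.52), CYCD1;1 (0.44) and SMR1 (0.37), which were higher than WT in AtC3H17 OX and lower in atc3h17-1. In AtC3H17 OX, the effects of CYCD1;1, CYCD2;1, CYCD3;1, E2FA and SMR1 were under the spot noise of 0.222. In atc3h17-1, those of MCM4 (0.09), E2FA (0.08), CYCD3;1 (0.05) and SMR1 (-0.21) were under the spot noise of 0.227. With normexp correction MCM4 was at -0.02 in AtC3H17 OX and 0.44 in atc3h17-1.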

How the results depend on the processing

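The count of members lower by 0.5 log2 in AtC3H17 OX against WT was 25 to 29 over the 10 alternatives, and the member median -0.46 to -0.60. The medians of atc3h17-1 against WT (-0.26 to -0.29 over 8 alternatives) and of AtC3H17 OX against atc3h17-1 (-0.24 to -0.32 over 10) kept their direction too. Counts at 2-fold did not hold. Lower in AtC3H17 OX than in WT by size were 1 with normexp correction, 5 with quantile normalization, 5 with the array median, 1 with the surface trend removed, and 5 to 6 with 1 AtC3H17 OX array left out. By limma these were 1, 7 and 7 with the first 3 settings. Higher were 2 with normexp and 0 with the trend removed, both by size and by limma. In atc3h17-1 against WT, 0 were lower with normexp, quantile normalization or the trend removed, and higher were 2 with normexp and 0 with the trend removed. AtC3H17 OX against atc3h17-1 gave 1 lower by 2-fold with quantile normalization, 0 to 2 with 1 array left out, and 1 lower by 0.5 log2 with normexp. Causes were not tested, and these counts have no share of all genes under the same setting beside them. A changed count is therefore not a result about the members alone. With 1 AtC3H17 OX array left out, the call rested on the remaining array. The difference changed sign under at least 1 alternative for 7 members in AtC3H17 OX against WT (CYCA2;2, CYCB2;1, CDKB2;2, E2FA, E2FB, RBR1, KRP1), for 9 in atc3h17-1 against WT (CYCA2;2, CYCB2;3, CDKB2;2, AUR2, CYCD2;1, CYCD3;1, E2FA, E2FB, RBR1) and for 3 in AtC3H17 OX against atc3h17-1 (CYCA2;2, CYCB2;1, CDKB2;1). Spots near background limit CYCA2;1 and CYCD4;2. limma without 1 AtC3H17 OX array was not run, as no residual degree of freedom would be left. No paired analysis was possible because only AtC3H17 OX carries replicate numbers.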
